A study of Mus musculus with 24 samples.

Results

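Aminoacyl-tRNA synthetases attach each amino acid to its transfer RNA (tRNA), and their transcripts were measured in the hippocampus of mice that lost Tsc1 in adulthood. The members were the protein-coding genes whose GENCODE symbol is the letter of an amino acid followed by ars, alone or with the ending 1, 2, 3, l or l2, together with Eprs, Farsa, Farsb and Fars2. This rule found 38 of the 21897 protein-coding genes among 55385 genes counted. The cytosolic class held 21 members and the mitochondrial class 17. A symbol ending in 2 was taken as mitochondrial, with the exception of Tarsl2, a cytosolic threonyl-tRNA synthetase. Gars and Kars each serve both compartments from 1 gene and were kept in the cytosolic class.

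The series followed inducible loss of Tsc1 over time, without and with rapamycin, with 4 adult mice in each of 6 groups. Mice of both sexes were used, and their split between the groups is not given here. Every mouse carried floxed Tsc1 (Tsc1f/f) and received tamoxifen, and days were counted from the start of the tamoxifen injections. Controls lacked the Cre transgene (Tsc1f/f-Tg(Camk2a-CreERT2-), Tsc1-Cre-) and their tissue was taken on day 8, while mice with the transgene (Tsc1f/f-Tg(Camk2a-CreERT2+), Tsc1-Cre+) were taken on day 4, 6, 8 or 13. Mice of the group Tsc1-Cre+-Rap 4 carried the transgene, received rapamycin at 10 mg/kg from day 4 and were taken on day 13. The Camk2a promoter limits Cre to CAMK2A-expressing neurons, so interneurons, glia and vessels in the same tissue kept Tsc1. Control and day 8 mice were numbered in the same pair of animal series, 2 mice of each group in each, and the remaining groups in different ones. What these numbers stand for is not given in the sources used here, and outside day 8 against control they cannot be told apart from the groups. Counts per mouse summed to 50460565 to 61083014 in controls, 56239855 to 60914278 on day 4, 51363380 to 62429111 on day 6, 53564370 to 59124484 on day 8, 38423852 to 126435936 on day 13 and 28208561 to 54924199 in Tsc1-Cre+-Rap 4. At these depths the lowest count of a cytosolic member in any mouse was 786 and that of a mitochondrial member 143, so no member was limited by a count near 0.

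Neurons, like other cells, keep separate sets of synthetases for protein synthesis in the cytosol and inside mitochondria, and both sets are encoded in the nucleus. The kinase complex mTORC1, which TSC1 and TSC2 restrain, promotes protein synthesis and the translation of the transcription factor ATF4, and cytosolic synthetase genes are among the known targets of ATF4. Inherited defects of mitochondrial synthetases such as EARS2 and AARS2 cause disease of the brain's white matter.

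Levels are given in CPM, a gene's reads relative to its library's total, corrected by the trimmed mean of M values over the 24 mice, always in the order of mice A, B, C and D. A member was called in a comparison when its edgeR p, adjusted over all genes tested, was under 0.05 and its log2 fold change was beyond 0.5 in either direction before rounding. The deleted gene was read first. Tsc1 stood at 110.4, 103, 106 and 104 CPM in controls and at 78.2, 79.7, 82.02 and 75.9 CPM on day 4. By day 13 it stood at 56.7, 58.6, 67.6 and 68.1 CPM, and under rapamycin at 66.3, 66.4, 67.8 and 68.98 CPM. Every Tsc1-Cre+ mouse of these groups, treated or untreated, lay below every control, so the labels matched the deletion. The log2 fold change of Tsc1 was -0.75 (standard error 0.0825, edgeR adjusted p 6.36e-04) on day 13 and -0.64 (standard error 0.0426, edgeR adjusted p 7.74e-06) in Tsc1-Cre+-Rap 4. Between those groups of mice the difference was 0.09 (standard error 0.0856, edgeR adjusted p 0.437) and was not called.

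Promoters of members were searched for the C/EBP-ATF response element (TGATGNAA on either strand), which ATF4 and its partners bind. A table of promoters on GRCm38.p6, from 250 bases before to 50 bases after each start of transcription, held 28 of the 38 members, 14 of each class. Promoters of the other 10 members, Cars and Nars among them, were not analysed here. The element was present in 5 of 14 cytosolic members (35.7%) and in 0 of 14 mitochondrial members, against 4.51% of the 27025 genes of the table. Aars had a match beginning 112 bases before the start and another 9 bases after it, Gars 30 bases before, Tars 15 bases before, Yars 3 bases after and Iars 7 bases after. Dars, Eprs, Farsa, Farsb, Kars, Mars, Qars, Sars and Tarsl2 had none in this window. The promoters with a match are shown because only cytosolic members of the table carried the element, each read along the strand of its gene with the element in capitals: Aars at chr8:111033592-111033891 (plus strand), Gars at chr6:55037751-55038050 (plus strand), Iars at chr13:49681880-49682179 (plus strand), Tars at chr15:11399609-11399908 (minus strand) and Yars at chr4:129189653-129189952 (plus strand).

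Aars: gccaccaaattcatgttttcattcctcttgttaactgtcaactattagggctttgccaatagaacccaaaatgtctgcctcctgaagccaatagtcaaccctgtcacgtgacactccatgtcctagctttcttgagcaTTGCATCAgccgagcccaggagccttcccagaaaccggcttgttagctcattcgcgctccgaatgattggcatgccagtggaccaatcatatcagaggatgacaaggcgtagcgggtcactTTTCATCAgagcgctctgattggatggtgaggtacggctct

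Gars: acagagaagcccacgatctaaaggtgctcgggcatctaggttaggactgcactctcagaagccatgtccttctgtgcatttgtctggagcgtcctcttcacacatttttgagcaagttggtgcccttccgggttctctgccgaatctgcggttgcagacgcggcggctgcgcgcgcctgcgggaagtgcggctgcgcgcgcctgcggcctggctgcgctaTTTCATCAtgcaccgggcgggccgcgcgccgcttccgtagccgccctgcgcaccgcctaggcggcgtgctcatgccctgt

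Iars: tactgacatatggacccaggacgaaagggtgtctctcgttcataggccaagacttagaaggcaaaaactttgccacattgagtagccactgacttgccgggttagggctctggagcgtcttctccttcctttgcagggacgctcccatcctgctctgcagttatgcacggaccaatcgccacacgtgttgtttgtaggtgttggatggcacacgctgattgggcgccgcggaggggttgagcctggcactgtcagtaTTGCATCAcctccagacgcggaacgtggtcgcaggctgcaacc

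Tars: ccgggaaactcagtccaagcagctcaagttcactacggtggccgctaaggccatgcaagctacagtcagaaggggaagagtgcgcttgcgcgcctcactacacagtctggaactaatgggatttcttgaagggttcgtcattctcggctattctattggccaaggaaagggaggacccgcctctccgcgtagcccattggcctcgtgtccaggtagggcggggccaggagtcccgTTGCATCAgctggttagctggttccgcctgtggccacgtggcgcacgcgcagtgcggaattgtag

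Yars: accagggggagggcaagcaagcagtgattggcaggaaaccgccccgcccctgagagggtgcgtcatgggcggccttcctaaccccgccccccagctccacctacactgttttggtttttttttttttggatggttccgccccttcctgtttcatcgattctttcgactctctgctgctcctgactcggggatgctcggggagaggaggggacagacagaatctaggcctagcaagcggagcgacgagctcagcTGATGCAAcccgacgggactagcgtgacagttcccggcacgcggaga

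In controls, levels were compared between genes as CPM per kilobase of exon. The cytosolic members had a median of 11.6 CPM per kilobase, from 4.54 for Tarsl2 to 30.3 for Nars, and the mitochondrial members a median of 3.33, from 1.70 for Sars2 to 7.06 for Rars2. The 16 highest of the 38 members were cytosolic, led by Nars at 30.3, Gars at 28.5, Hars at 23.5, Sars at 20.8 and Farsb at 19.3 CPM per kilobase. Of the 37 pairs of neighbours in this order, 24 had overlapping control mice, while Nars, Gars and Hars were each clear of the next gene in the order. Cars, which changed most later, ranked low among cytosolic members at 5.22 CPM per kilobase. The classes were alike in sequence content and length, with median GC contents of 49.4% and 48.2% and median exon lengths of 5142 and 5460 bases for the cytosolic and mitochondrial members, and lay on 14 and 10 chromosomes.

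For each mouse, the median over a class of the log2 level minus the control mean summarised that class. The cytosolic minus the mitochondrial median was -0.02, 0.03, -0.02 and 0.01 in the control mice and 0.06, 0.05, 0.04 and 0.06 on day 4, narrowly above all controls, and its mean over untreated mice was larger on each later day. The cytosolic median was 0.03, 0.00, -0.04 and 0.01 in the control mice, 0.09, 0.08, 0.02 and 0.06 on day 4 and 0.26, 0.24, 0.36 and 0.25 on day 6. It was 0.92, 0.57, 1.03 and 0.52 on day 8, 1.00, 1.495, 0.74 and 0.83 on day 13 and -0.04, -0.02, -0.02 and -0.16 in Tsc1-Cre+-Rap 4. All mice of day 6, 8 and 13 were above all controls, mice A and C of day 8 stood apart from mice B and D, and mouse B of day 13 was the highest of the 24. The mitochondrial median was 0.06, 0.04, -0.07 and -0.01 on day 8, -0.12, 0.03, -0.02 and 0.08 on day 13 and 0.07, 0.03, -0.07 and -0.03 in Tsc1-Cre+-Rap 4, and on no day did its mice separate from controls. Summed over members, the cytosolic class held 278 CPM per kilobase in controls (SD 4.90), 291 on day 4 (SD 7.84), 343 on day 6 (SD 15.2), 493 on day 8 (SD 64.0), 605 on day 13 (SD 130.4) and 269.9 under rapamycin (SD 9.53). The mitochondrial class held 64.9, 65.5, 67.2, 67.0, 68.8 and 65.2 CPM per kilobase in the same groups, and its day 6 and day 8 mice lay just above the controls in this sum. The ratio of the sums, taken in each mouse and then averaged over the group, was 4.28 in controls, 4.45, 5.10, 7.35 and 8.74 on day 4, 6, 8 and 13, and 4.14 under rapamycin. These are values of whole tissue, in which fewer cells of a type and less RNA per cell cannot be told apart, and the contrast between the classes carries no p-value.

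**Figure D1:**
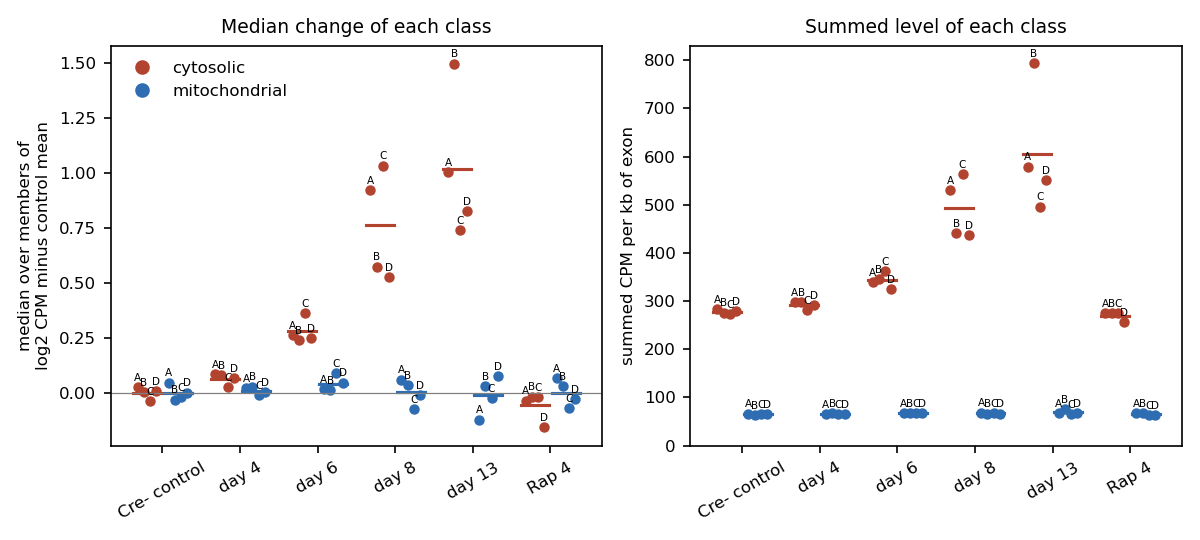
Left, median log2 change of each class from the control mean; right, summed CPM per kilobase of each class; points are mice with their letters and lines are group means of the 6 groups. The cytosolic class climbs from day 6 to day 13 and lies at the control level in Tsc1-Cre+-Rap 4, while the mitochondrial class stays close to the controls throughout.

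Comparisons with the controls share the same 4 control mice. On day 4, when edgeR called 0.680% of all genes tested, it called 0 cytosolic and 0 mitochondrial members, with 9 and 4 at an unadjusted p under 0.05, and DESeq2 also called 0 and 0. Median log2 fold changes were 0.06 for cytosolic members, 0.02 for mitochondrial members and -0.00 for all genes tested. On day 6, with 1.32% of genes called, Cars and Gars were the 2 cytosolic members called, and all 21 had positive log2 fold changes with a median of 0.26 against -0.02 for all genes. Among mitochondrial members edgeR called 0 on day 6, with 5 at an unadjusted p under 0.05 and 0 called by DESeq2, and the median was 0.03. The day 6 call of Gars was lost without day 6 mouse C, where its log2 fold change was 0.46, and with a correction for GC content (0.50). With the Xist level as a covariate for sex, Cars was not called on day 6 (0.50).

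By day 8, with 3.99% of genes called, 13 of 21 cytosolic members (61.9%) were called, all higher, and the median was 0.82 against -0.03 for all genes. No mitochondrial member was called on day 8, the edgeR count being 0 with 3 at an unadjusted p under 0.05 and 0 by DESeq2, and the median was -0.00. Rars, at 0.50, lay at the fold threshold on day 8 and lost its call without control C (0.47), day 8 mouse A (0.48) or day 8 mouse C (0.43), and with no filter on low counts (0.50), the replicate letter as a block (0.49) or a correction for GC content (0.47). Wars, at 0.50 and not called, passed without control A (0.51), day 8 mouse B (0.51) or day 8 mouse D (0.51). Farsb passed without control A (0.51), day 8 mouse B (0.53) or day 8 mouse D (0.51), and Hars without day 8 mouse B (0.51) or day 8 mouse D (0.50). On day 13, with 16.5% of genes called, 16 of 21 cytosolic members (76.2%) and 1 of 17 mitochondrial members (5.88%) were called, all higher. The day 13 medians were 1.00 for cytosolic members, -0.05 for mitochondrial members and -0.04 for all genes. Over all 6 groups at once, the edgeR F test found 41.9% of genes under an adjusted p of 0.05, among them 21 of 21 cytosolic members, from 3.72e-11 for Cars to 7.07e-04 for Tarsl2, and 7 of 17 mitochondrial members, Aars2 and Sars2 among them.

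**Figure D2:**
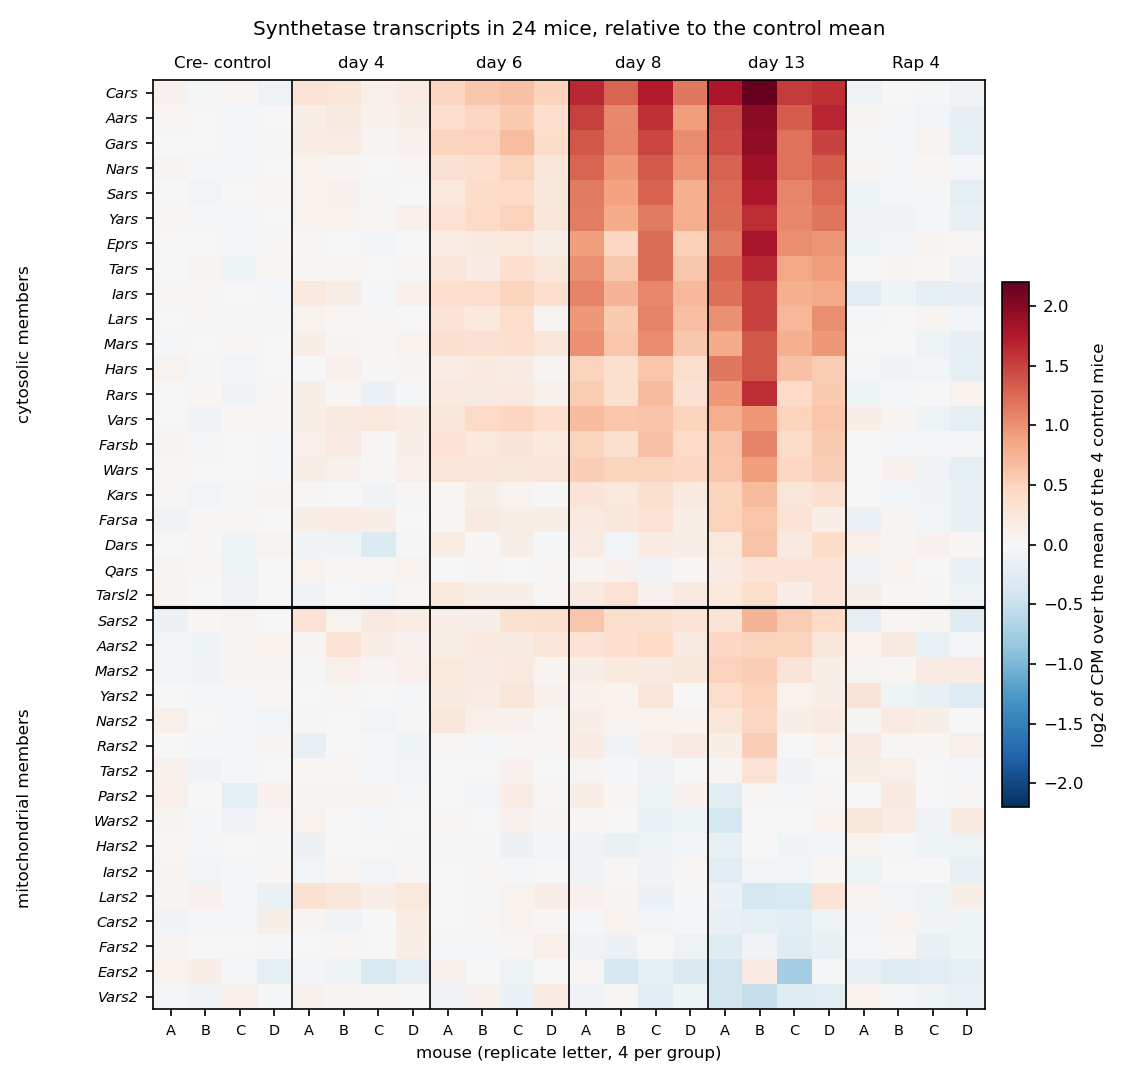
Heat map of 37 members (vertical) in the 24 mice of the 6 groups (horizontal), coloured by log2 CPM minus the control mean and sorted within each class by the day 13 change. Most cytosolic members darken on day 8 and day 13, strongest in mice A and C of day 8 and mouse B of day 13, while Dars and Qars stay pale on day 8, and none is dark under rapamycin.

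Cytosolic synthetases work either singly or in the multisynthetase complex, a large assembly that holds several of these enzymes. Cars, the cysteinyl-tRNA synthetase, was at 36.8, 33.6, 35.3 and 31.8 CPM in controls, 42.6, 41.5, 37.3 and 39.01 CPM on day 4 and 47.9, 51.9, 53.6 and 49.1 CPM on day 6. Cars then stood at 108, 83.7, 115 and 77.00 CPM on day 8, 118, 162, 99.8 and 105 CPM on day 13 and 31.98, 34.03, 33.9 and 32.5 CPM under rapamycin. Every mouse from day 4 to day 13 exceeded every control, whereas the rapamycin mice lay among the controls. Its log2 fold change was 0.55 (standard error 0.05301, edgeR adjusted p 3.97e-05) on day 6 and 1.82 (standard error 0.135, edgeR adjusted p 1.48e-04) on day 13.

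Aars, which charges the tRNA of alanine, was at 128, 124, 119.7 and 123 CPM in controls, 137, 141, 132 and 136 CPM on day 4 and 162, 170.3, 184 and 159 CPM on day 6. Later values for Aars were 353, 257, 375 and 233 CPM on day 8, 339, 493, 313 and 396 CPM on day 13 and 129.5, 120.1, 119 and 109.7 CPM with rapamycin. As for Cars, all mice of day 4 to day 13 were above all controls, with mouse B of day 13 the highest. The day 13 log2 fold change of Aars was 1.64 (standard error 0.1205, edgeR adjusted p 1.48e-04). Gars, the glycine enzyme of cytosol and mitochondria alike, was at 89.3, 88.9, 86.9 and 89.97 CPM in controls, 99.8, 98.9, 92.3 and 95.1 CPM on day 4 and 125, 127, 142 and 117 CPM on day 6. It reached 228, 187, 247 and 182 CPM on day 8 and 238, 345, 204 and 249.9 CPM on day 13, and was at 86.6, 87.1, 93.8 and 77.6 CPM under rapamycin. Mice of day 4 already lay above the controls, narrowly, and those of day 6 clearly. Gars had a log2 fold change of 0.52 (standard error 0.0493, edgeR adjusted p 3.77e-05) on day 6 and 1.55 (standard error 0.1302, edgeR adjusted p 2.30e-04) on day 13.

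Nars, for asparagine, stood at 137, 129, 128 and 133 CPM in controls, 166, 169, 184 and 158 CPM on day 6 and 318, 255, 337 and 259 CPM on day 8. Values of Nars were 139, 138, 132 and 136 CPM on day 4, 324, 483, 301 and 333 CPM on day 13 and 138, 130.1, 135 and 127 CPM under rapamycin. Day 4 mice overlapped the controls, all later untreated mice were above them, and the treated mice overlapped them again. For Nars the day 13 log2 fold change was 1.46 (standard error 0.127, edgeR adjusted p 2.56e-04). Sars, for serine, was at 108, 103, 107 and 110.0 CPM in controls, 113, 114, 109 and 108 CPM on day 4 and 125.6, 141, 145 and 127 CPM on day 6. Its values were 237, 197, 263 and 184 CPM on day 8, 253, 371, 224 and 253 CPM on day 13 and 101, 104, 106 and 92.8 CPM under rapamycin. Separation from the controls was complete from day 6 to day 13. The log2 fold change of Sars on day 13 was 1.37 (standard error 0.1300, edgeR adjusted p 3.77e-04).

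Yars, the tyrosyl-tRNA synthetase, was at 65.7, 62.6, 61.7 and 63.8 CPM in controls, 66.96, 66.98, 64.9 and 68.4 CPM on day 4 and 79.5, 86.01, 90.1 and 76.4 CPM on day 6. Yars was then at 138, 112, 141 and 111 CPM on day 8, 149, 196, 132 and 143 CPM on day 13 and 60.1, 60.4, 61.5 and 56.6 CPM under rapamycin. The treated mice lay just below all controls, a difference of -0.08 on the log2 scale that was not called. On day 13 the log2 fold change of Yars was 1.29 (standard error 0.104, edgeR adjusted p 1.93e-04). Tars, for threonine, was at 30.95, 32.3, 28.9 and 32.2 CPM in controls, 32.1, 32.2, 31.3 and 31.6 CPM on day 4 and 37.2, 35.3, 40.04 and 36.9 CPM on day 6. Tars reached 62.1, 46.6, 72.5 and 46.8 CPM on day 8 and 74.7, 98.7, 55.9 and 58.6 CPM on day 13, against 31.1, 32.5, 32.2 and 29.6 CPM under rapamycin. In Tars, as in the preceding members, mice A and C of day 8 were well above mice B and D, and all were above the controls. Tars had a day 13 log2 fold change of 1.22 (standard error 0.154, edgeR adjusted p 0.00106). Eprs, a member of the multisynthetase complex whose single protein charges the tRNAs of glutamate and proline, was at 140.0, 139.7, 134 and 141 CPM in controls, 143, 139, 133 and 138 CPM on day 4 and 155, 158, 164 and 152 CPM on day 6. It stood at 262, 189.6, 326 and 199.5 CPM on day 8, 308, 489, 281 and 273 CPM on day 13 and 128, 133, 144 and 142 CPM with rapamycin. Day 13 mouse B was far above the other mice of its group, which were themselves all above the controls. The day 13 change of Eprs was 1.29 (standard error 0.159, edgeR adjusted p 9.78e-04).

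**Figure D3:**
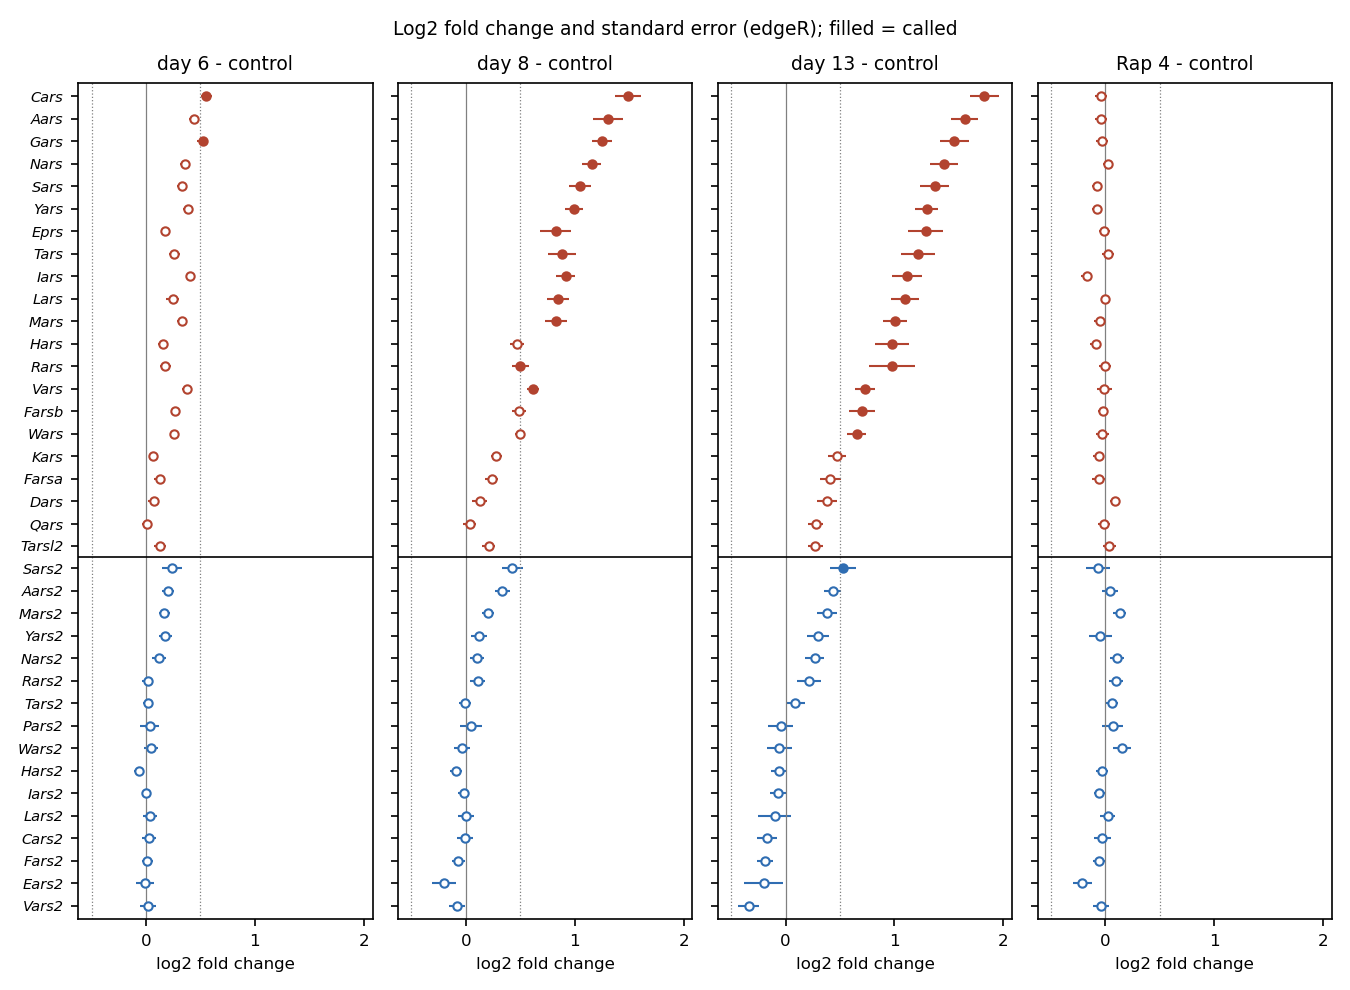
Log2 fold change against controls (horizontal, with standard errors) of 37 members on day 6, 8 and 13 and in Tsc1-Cre+-Rap 4; red, cytosolic; blue, mitochondrial; filled points were called and dotted lines mark 0.5 in either direction. Cytosolic points move right from day 6 to day 13, mitochondrial points lie on both sides of 0 with Sars2, Aars2, Mars2 and Vars2 farthest from it on day 13, and the rapamycin points of both classes lie around 0.

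The other cytosolic members called on day 13 were Iars at 1.12, Lars at 1.10, Mars at 1.00, Hars at 0.98, Rars at 0.98, Vars at 0.73, Farsb at 0.70 and Wars at 0.65 on the log2 scale. Kars, Farsa, Dars, Qars and Tarsl2 were not called, with log2 fold changes of 0.47, 0.41, 0.38, 0.28 and 0.27, although the edgeR adjusted p of each was under 0.05 and all their day 13 mice were above all controls. Kars was called when day 13 mouse C was left out (0.55). Within the phenylalanine enzyme, made of both a Farsa and a Farsb chain, the log2 fold changes were 0.41 and 0.70, and the difference between the chains was not tested. The members were also split by the textbook composition of the multisynthetase complex (Dars, Eprs, Iars, Kars, Lars, Mars, Qars and Rars), a split chosen after the values were seen. On day 13, with 16.5% of all genes called, 5 of its 8 members were called with a median of 0.99. Of the other cytosolic members, 11 of 13 were called with a median of 1.22. Day 8, with 3.99% of all genes called, gave 5 of 8 with a median of 0.66 and 8 of 13 with a median of 0.88. The ranges of members inside and outside the complex overlapped.

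Mitochondrial counterparts of the members above are given next. Sars2, the mitochondrial enzyme for serine, was the least abundant member per kilobase in controls. It was at 5.18, 5.81, 5.93 and 5.63 CPM in controls, 7.06, 5.94, 6.49 and 6.302 CPM on day 4 and 6.22, 6.19, 7.13 and 7.196 CPM on day 6. It stood at 8.56, 7.38, 7.27 and 6.96 CPM on day 8, 6.95, 9.49, 8.28 and 7.62 CPM on day 13 and 4.96, 5.79, 5.900 and 4.65 CPM under rapamycin. All untreated Tsc1-Cre+ mice lay above all controls, and the treated mice overlapped the controls. With a day 13 log2 fold change of 0.53 (standard error 0.121, edgeR adjusted p 0.0121), Sars2 was the 1 mitochondrial member called. That call was lost without control A (0.49) or day 13 mouse B (0.46), and with a correction for GC content (0.44). Aars2 was at 27.6, 26.9, 29.99 and 30.3 CPM in controls, 35.5, 37.1, 38.7 and 32.8 CPM on day 8 and 39.4, 40.4, 40.1 and 34.2 CPM on day 13. Earlier and treated values of Aars2 were 29.9, 35.2, 31.7 and 30.8 CPM on day 4, 31.6, 33.5, 32.9 and 34.3 CPM on day 6 and 30.3, 32.9, 25.96 and 28.1 CPM under rapamycin. Mice of day 6, 8 and 13 were above all controls, but the log2 fold change of 0.43 (standard error 0.0774, edgeR adjusted p 0.00425) on day 13 stayed under the threshold.

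Cars2, the counterpart of the member with the largest cytosolic change, was at 12.5, 12.8, 12.9 and 14.3 CPM in controls, 12.9, 13.8, 12.6 and 12.7 CPM on day 8 and 11.7, 11.4, 11.1 and 12.1 CPM on day 13. On day 4 Cars2 was at 13.7, 12.5, 12.97 and 14.7 CPM, on day 6 at 13.01, 13.3, 13.9 and 13.4 CPM and under rapamycin at 12.6, 13.9, 12.4 and 12.2 CPM. The day 13 mice were all just below the controls, and the other groups overlapped them. The log2 fold change was -0.17 (standard error 0.0889, edgeR adjusted p 0.177) and was not called. Nars2 was at 18.8, 17.4, 17.03 and 16.8 CPM in controls, 17.7, 17.5, 16.9 and 17.9 CPM on day 4 and 20.8, 18.9, 18.6 and 18.04 CPM on day 6. Later, Nars2 was at 19.4, 18.4, 18.5 and 18.5 CPM on day 8, 20.98, 23.9, 19.1 and 19.8 CPM on day 13 and 18.2, 19.7, 19.1 and 17.6 CPM under rapamycin. Only the day 13 mice separated from the controls. Nars2 had a log2 fold change of 0.27 (standard error 0.0874, edgeR adjusted p 0.0467) on day 13. Yars2 was at 13.6, 13.2, 13.4 and 13.9 CPM in controls, 13.6, 13.8, 13.4 and 13.1 CPM on day 4 and 15.5, 15.2, 16.2 and 14.5 CPM on day 6. Values of 14.4, 14.4, 16.2 and 13.5 CPM on day 8, 17.7, 19.4, 14.2 and 14.9 CPM on day 13 and 16.5, 12.6, 12.1 and 11.1 CPM under rapamycin followed for Yars2. Its day 6 and day 13 mice were above the controls, and its treated mice were scattered on both sides of them. The day 13 change of Yars2, 0.30 (standard error 0.104, edgeR adjusted p 0.0585), was not called.

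Ears2 and Pars2 together answer to Eprs. Ears2 was at 11.9, 12.5, 11.1 and 9.85 CPM in controls, 10.8, 10.5, 8.96 and 9.79 CPM on day 4 and 12.03, 11.2, 10.5 and 11.4 CPM on day 6. Ears2 stood at 11.5, 8.83, 9.79 and 9.12 CPM on day 8, 8.55, 12.8, 6.72 and 11.1 CPM on day 13 and 10.1, 9.45, 9.52 and 9.89 CPM under rapamycin. Its day 13 mice were spread both above and below the range of the controls. Pars2 was at 8.08, 7.42, 6.55 and 7.97 CPM in controls, 7.86, 7.79, 7.85 and 7.303 CPM on day 4 and 7.57, 7.22, 8.396 and 7.65 CPM on day 6. Pars2 was at 8.31, 7.69, 6.95 and 7.99 CPM on day 8, 6.32, 7.63, 7.36 and 7.62 CPM on day 13 and 7.42, 8.64, 7.43 and 7.68 CPM with rapamycin. Every group of Pars2 overlapped the controls. Tars2 was at 44.3, 39.4, 40.9 and 41.1 CPM in controls, 42.7, 42.9, 40.6 and 39.9 CPM on day 4 and 41.03, 41.7, 44.3 and 41.1 CPM on day 6. Tars2 was at 43.1, 40.3, 39.3 and 41.05 CPM on day 8, 43.3, 51.6, 39.2 and 41.3 CPM on day 13 and 45.2, 44.8, 41.2 and 40.8 CPM with rapamycin, each group again overlapping the controls. Day 13 log2 fold changes were -0.20 for Ears2, -0.04 for Pars2 and 0.09 for Tars2, none of them called.

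Of the remaining mitochondrial members, several had an edgeR adjusted p under 0.05 with a change under the fold threshold. Vars2, for valine, was lower on day 13, at 15.2, 14.2, 16.7 and 17.1 CPM against 19.7, 19.2, 21.8 and 19.7 CPM in controls, with no overlap and a log2 fold change of -0.34 (standard error 0.0977, edgeR adjusted p 0.0305). Mars2, for methionine, was higher on day 13, at 53.7, 54.6, 45.7 and 41.2 CPM against 36.1, 35.8, 39.4 and 39.2 CPM, again with no overlap, at 0.38 (standard error 0.0918, edgeR adjusted p 0.0145). Lars2 was higher on day 4, with a log2 fold change of 0.25 (standard error 0.0622, edgeR adjusted p 0.0469). Fars2, Hars2, Iars2, Rars2 and Wars2 had log2 fold changes of -0.19, -0.06, -0.07, 0.22 and -0.06 on day 13, not called. None of these changes was called in either direction.

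For 13 amino acids with 1 gene of each class, the log2 ratio of the cytosolic to the mitochondrial transcript was taken within each mouse. The ratio was above all controls in all 4 mice for 1 amino acid on day 4 (tyrosine), 9 on day 6, 13 on day 8, 13 on day 13 and 0 in Tsc1-Cre+-Rap 4. On day 4 the ratio for leucine was below all controls. Of single genes, edgeR called 0.680%, 1.32%, 3.99% and 16.5% against controls on day 4, 6, 8 and 13, and 1.41% under rapamycin. How often other pairs of genes separate in this way was not measured, so these counts have no background share. Median changes of the ratio over the 13 amino acids were 0.08, 0.22, 0.70 and 1.01 on day 4, 6, 8 and 13, and -0.06 under rapamycin. Cysteine shifted most on day 13 (1.97). For cysteine the ratio was 1.55, 1.39, 1.45 and 1.15 in controls, 3.33, 3.83, 3.16 and 3.12 on day 13 and 1.35, 1.29, 1.45 and 1.41 under rapamycin. All day 13 mice were far above the controls, and the treated mice lay among the controls.

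**Figure D4:**
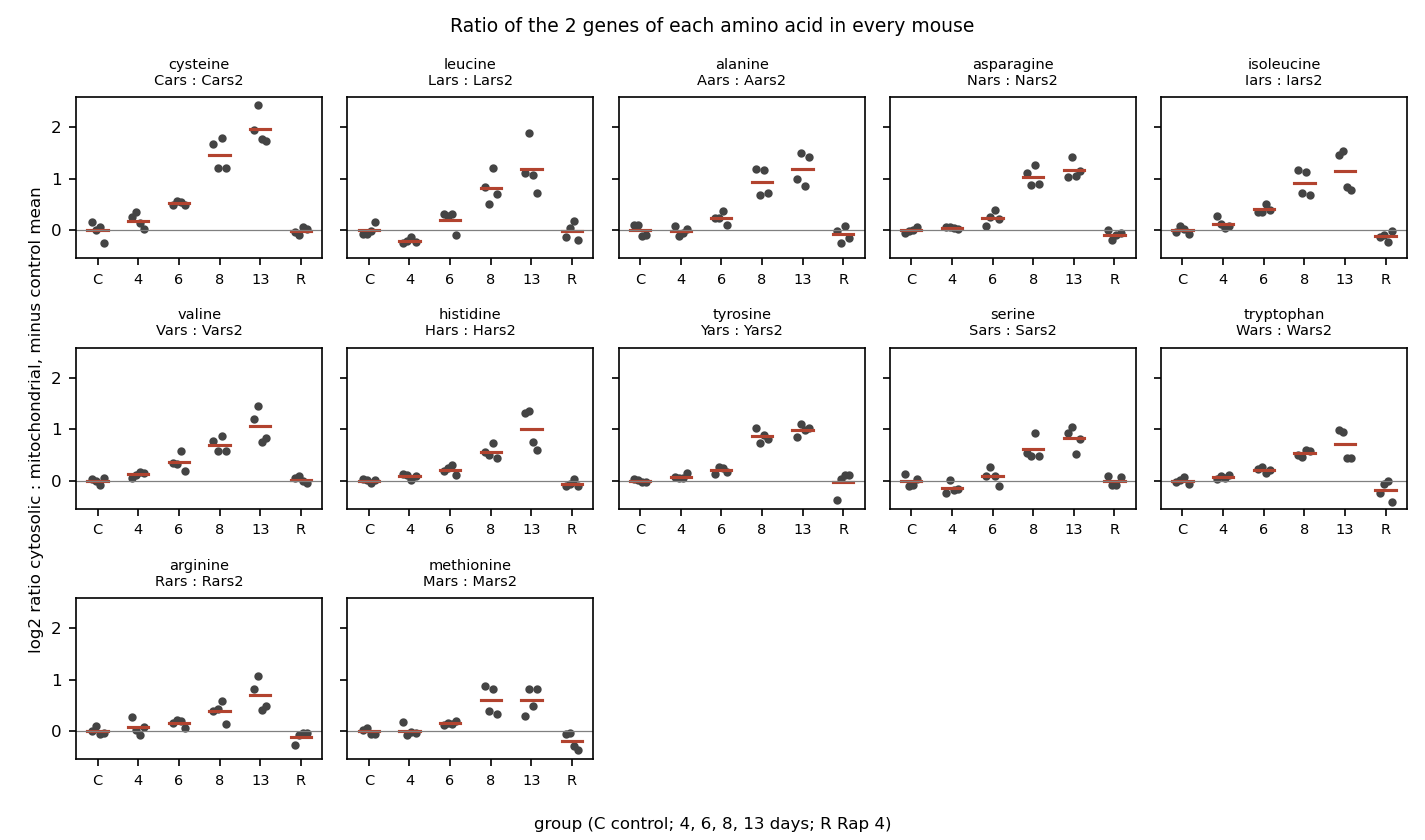
Log2 ratio of the cytosolic to the mitochondrial synthetase transcript minus the control mean (vertical) for 12 amino acids in the 6 groups; points are mice and red lines are group means. Ratios for all 12 are above the controls on day 8 and day 13 and overlap them in Tsc1-Cre+-Rap 4.

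Rapamycin from day 4 left the members near the controls. Against controls, with 1.41% of genes called, edgeR called 0 cytosolic and 0 mitochondrial members, with 1 and 2 at an unadjusted p under 0.05 and none (0 and 0) called by DESeq2. The medians were -0.03 and 0.02, against 0.01 for all genes. Iars came closest to a difference, at 51.6, 57.5, 52.9 and 53.9 CPM against 62.5, 62.4, 60.8 and 59.7 CPM in controls. Its treated mice were all below the controls, and its log2 fold change was -0.17 (standard error 0.0461, edgeR adjusted p 0.0589). The direct comparison of treated with untreated day 13 mice called 21.1% of genes, and 17 of 21 cytosolic members were called, all lower, with a median of -1.08 against 0.02 for all genes. The largest differences were -1.88 (standard error 0.131, edgeR adjusted p 9.63e-05) for Cars, -1.69 (standard error 0.126, edgeR adjusted p 1.16e-04) for Aars and -1.59 (standard error 0.138, edgeR adjusted p 1.92e-04) for Gars. Kars was called at -0.54 but not without day 13 mouse B (-0.47), and Farsa, at -0.48, was called without day 13 mouse C (-0.53), day 13 mouse D (-0.56) or rapamycin mouse B (-0.53). Sars2, at -0.61 (standard error 0.138, edgeR adjusted p 0.00933), was the 1 of 17 mitochondrial members called, and the mitochondrial median was 0.00. With a correction for GC content, neither Sars2 (-0.44) nor Kars (-0.46) was called. Tsc1 itself was low in treated and untreated mice alike.

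Steps between time points were tested directly. From day 6 to day 8, with 0.229% of genes called, 8 of 21 cytosolic members were called, all higher, with a median of 0.49 against 0.00 for all genes. They were Cars at 0.92, Aars at 0.85, Nars at 0.79, Gars at 0.73, Sars at 0.71, Yars at 0.60, Lars at 0.59 and Iars at 0.51. This count was 0 when day 6 mouse A, B, C or D or day 8 mouse A was left out, and ranged up to 11 without another mouse. Without those mice the log2 fold change of Cars was 0.90, 0.93, 0.95, 0.91 and 0.86 and its edgeR adjusted p 0.123, 0.0785, 0.0573, 0.137 and 0.0965, while Iars was at 0.49, 0.496, 0.53, 0.49 and 0.44. Without day 8 mouse C, Lars (0.50) and Iars (0.45) were not called. The count was also 0 with the Xist level as a covariate for sex, where the log2 fold changes of these members ran from 0.45 for Iars to 0.84 for Cars. Among mitochondrial members edgeR called 0, with 0 at an unadjusted p under 0.05 and 0 called by DESeq2. Of 5 astrocyte markers, 1 was called from day 6 to day 8, Aldh1l1, higher at 0.54 (standard error 0.0976, edgeR adjusted p 0.0497). Gfap (1.60) and Aqp4 (0.25) were higher and Gja1 (-0.23) and Slc1a3 (-0.19) lower, none of them called. From day 8 to day 13 edgeR called 0 cytosolic and 0 mitochondrial members, with 4 and 1 at an unadjusted p under 0.05, while DESeq2 called 0 of either class, and 0% of all genes tested were called. Medians for this last step were 0.25 for the cytosolic class, 0.02 for the mitochondrial class and -0.01 for all genes.

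Genes that work beside the synthetases were counted in the same fits. Of 3 scaffold proteins of the multisynthetase complex, 2 were called higher on day 13, against 16.5% of all genes, Eef1e1 at 0.79 and Aimp2 at 0.52, and both were called lower in treated than in untreated mice. Aimp2 lost its day 13 call without control D (0.48), day 13 mouse B (0.49) or day 13 mouse D (0.48). On day 8 none of the scaffolds was called (edgeR 0, 2 at an unadjusted p under 0.05, DESeq2 0), although Eef1e1 was called without control D (0.55) or day 8 mouse B (0.55). Xpot, which exports tRNA from the nucleus, was called at 0.85 on day 8 and 1.08 on day 13, as the 1 of 3 genes of tRNA export and delivery, against 3.99% and 16.5% of all genes. Among 4 genes of editing and deacylation, which remove wrongly attached amino acids, edgeR called 0 on day 13, with 0 at an unadjusted p under 0.05 and 0 by DESeq2. Among 6 genes of indirect aminoacylation and selenocysteine, edgeR called 0 on day 13, with 1 at an unadjusted p under 0.05 and 0 by DESeq2. The 13 genes of the amino acid response, chosen in view of earlier results and so not independent, numbered 8 called higher on day 6, 10 on day 8 and 13 on day 13, against 1.32%, 3.99% and 16.5% of all genes, with a day 13 median of 2.50. The 12 with the largest day 13 changes were, in order, Atf3, Trib3, Chac1, Eif4ebp1, Stc2, Sesn2, Nupr1, Ddit3, Asns, Atf4, Cebpb and Ddit4, from 4.89 to 0.88, and Nupr1 lost its edgeR call without control A, B, C or D or day 13 mouse A or B, with adjusted p of 0.09305, 0.0937, 0.0985, 0.0913, 0.06704 and 0.118.

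Other genes of protein synthesis inside mitochondria were counted in the same way. Among 9 mitochondrial translation factors, 3 were called on day 13, against 16.5% of all genes, each higher, Gfm1 at 0.61, Tsfm at 0.57 and Tufm at 0.51. Without day 13 mouse B only Gfm1 was called, with Tsfm at 0.50 and Tufm at 0.46, and Tufm also lost its call without control D (0.50) or day 13 mouse A (0.49). Of 77 mitochondrial ribosomal protein genes tested, 25 were called higher on day 13, when 16.5% of all genes were called in either direction, with a median log2 fold change of 0.44 against -0.04 for all genes. In treated against untreated mice 26 were called lower, where 21.1% of all genes were called in either direction. The day 13 count was 15 without day 13 mouse B. The most changed were Mrps6, Mrps34, Mrpl54, Mrps26, Mrpl20, Mrps16, Mrps28, Mrpl21, Mrpl46, Mrps12, Mrps22 and Mrpl39, from 1.24 to 0.65. Mrps6 lost its call without any 1 of controls A (1.22), B (1.30), C (1.21) or D (1.22) or day 13 mice A (0.93) or B (0.99), and Mrps34 without control A (0.67), B (0.81) or C (0.91) or day 13 mouse B (0.79) or C (0.80). The difference between these lists and the mitochondrial synthetases was not tested.

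Markers of cell types were read beside these values. Of all genes, 3.99% were called on day 8, 16.5% on day 13 and 21.1% in treated against untreated mice. Gfap, a gene of reactive astrocytes, which keep Tsc1, was at 163, 210.2, 187 and 203 CPM in controls, 673, 126.02, 889 and 158 CPM on day 8 and 741, 1346, 365 and 431 CPM on day 13. Mice A and C of day 8 and mouse B of day 13 were the highest of their groups for Gfap as they were for the cytosolic median. The log2 fold change of Gfap on day 13 was 1.91 (standard error 0.3496, edgeR adjusted p 0.00466), and under rapamycin it fell below controls, at -0.77 (standard error 0.0806, edgeR adjusted p 3.81e-04). The summed level of 5 astrocyte markers was 1096, 1083, 1053 and 1077 CPM in controls and 1449, 2072, 1131 and 1202 CPM on day 13. By group mean, Slc1a3 was the most abundant of these markers in controls, at 495 CPM against 191 for Gfap. On day 8 and day 13 it was Gfap, at 462 and 721 CPM against 377 and 425 for Slc1a3. In single mice, Slc1a3 was still the higher of these markers in day 8 mice B and D and day 13 mice C and D. Gfap was not called on day 8, at 1.28 (standard error 0.517, edgeR adjusted p 0.127). Among the 5 markers, Gfap alone was called higher on day 13. Gja1 was called lower on day 8 (-0.56) and on day 13, at -0.93 (standard error 0.299, edgeR adjusted p 0.0446). Slc1a3 was at -0.21 on day 13 and not called, and the day 13 median was 0.00. The call of Gja1 was lost without control A (-0.91), B (-0.94), C (-0.92) or D (-0.95) or day 13 mouse A (-0.71) or B (-0.77). In treated against untreated mice Gfap (-2.70), Aqp4 (-0.73) and Aldh1l1 (-0.59) were called lower and Gja1 (0.89) higher. Of these, Aldh1l1 lost its call without day 13 mouse B (-0.46), and Gja1 without day 13 mouse A (0.67) or B (0.73) or rapamycin mouse A (0.90), B (0.92), C (0.87) or D (0.87). For 5 markers of excitatory neurons, of which Camk2a was the most abundant, it was 3293, 2766, 2791 and 2506 CPM in controls and 3222, 2728, 3385 and 3786 CPM on day 13, with overlap. Camk2a, Rbfox3 and Neurod6 were not called on day 13, whereas Slc17a7, at 0.73 (standard error 0.0751, edgeR adjusted p 5.08e-04), and Neurod2, at 0.89 (standard error 0.0694, edgeR adjusted p 1.58e-04), were called higher, Neurod2 already on day 8 (0.66). In treated against untreated mice Slc17a7 (-0.79) and Neurod2 (-0.62) were called lower.

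Markers of hippocampal fields were a list of 6, of which Prox1 was the most abundant and none was at 0 in any mouse. They summed to 436, 432, 413 and 434 CPM in controls, 363, 352, 374 and 382 CPM on day 8, all below the controls, and 478, 458, 380.0 and 364 CPM on day 13. Calb1 was the 1 of 6 called on day 13, against 16.5% of all genes. It was lower, at -1.19 (standard error 0.225, edgeR adjusted p 0.00557), and the list median was 0.26. In treated against untreated mice, 21.1% of all genes were called. There Calb1 was called higher, at 1.43 (standard error 0.224, edgeR adjusted p 0.00181), and Wfs1 lower, at -0.63 (standard error 0.211, edgeR adjusted p 0.0449). The call of Wfs1 was lost without day 13 mouse A (-0.44) or B (-0.55) or rapamycin mouse A (-0.62), B (-0.65), C (-0.62) or D (-0.62). Calb1 was not called on day 8 (-0.39) but was called without day 8 mouse D (-0.55).

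Markers of vessels and other glia also differed between treated and untreated mice, in this comparison with 21.1% of all genes called. Of 3 endothelial markers, with Flt1 the most abundant, Cldn5 was called lower, at -1.06 (standard error 0.141, edgeR adjusted p 9.34e-04), and so was Pecam1, at -0.63 (standard error 0.133, edgeR adjusted p 0.00684). Their sum was 133, 115, 122 and 111 CPM in controls, 153, 148, 125 and 108 CPM on day 13 and 99.2, 99.5, 91.2 and 100.2 CPM under rapamycin, all treated mice being below both other groups. Of 5 microglial markers, with Csf1r the most abundant, Aif1 was called lower, at -0.73 (standard error 0.168, edgeR adjusted p 0.0103). The microglial sum was 205, 187, 169.9 and 183 CPM in controls, 139, 183, 193 and 167 CPM on day 13 and 135, 143, 123 and 132 CPM under rapamycin, where treated mice overlapped the untreated ones. Cldn11, an oligodendrocyte marker, was called lower, at -0.53 (standard error 0.144, edgeR adjusted p 0.0204), and lost its call without day 13 mouse D (-0.38) or rapamycin mouse A (-0.51) or B (-0.47). No marker of interneurons, oligodendrocyte precursors or choroid plexus was called in this comparison with all mice, although Folr1 was called without rapamycin mouse C (-2.88) and Kl without day 13 mouse C (-0.62), as was Tmem119 of the microglial list without day 13 mouse A (-0.63). Against controls, markers called lower under rapamycin included Cldn5 (-0.68), Aif1 (-0.67), Cx3cr1 (-0.54), Mog (-0.59) and, of the astrocyte list, Gfap and Aqp4 (-0.72), with 1.41% of all genes called. Cx3cr1 lost that call without control A (-0.50) or rapamycin mouse C (-0.49), and Mog without control B (-0.50), C (-0.63) or D (-0.51) or rapamycin mouse A (-0.51) or B (-0.55). The part of any of these markers in the changes of the synthetases was not tested. Whether the cytosolic synthetase transcripts came from the neurons without Tsc1 or from other cells was not tested.

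Some members share bases with other protein-coding genes, and how counting treated strands and reads that map to several places is not given in the sources used here. Aars shares 1326 bases of its span with Exosc6 on the same strand and Tarsl2 923 with Tm2d3, so their counts are uncertain to that extent. On the opposite strand, Farsb, Hars and Hars2, Mars, Wars, Yars, Cars2, Ears2, Fars2 and Iars2 overlap other protein-coding genes, and Mars shares 68 bases with Ddit3, which was called higher on day 13. Genes of other types also overlap members, on the same strand for Cars (Mir7064), Farsa (Mir7069), Farsb, Iars, Wars, Fars2 and Wars2, and on the opposite strand for members that include Cars (Gm15580), Aars, Lars and Sars. The bases shared with these genes were not measured here. Each group held 4 mice, controls were taken on day 8 alone and no control mice received rapamycin in these groups. Transcripts were measured, while charged tRNA, protein and protein synthesis were not analysed here.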

How the data were processed

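RNA from the hippocampus of 24 mice was sequenced, 1 library per mouse. The authors trimmed reads with cutadapt 1.16.5, aligned them to GRCm38 with STAR 2.7.2b and deposited raw counts per gene from featureCounts 1.6.4, per the submitters' processing notes. These counts were the only values used.

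Each comparison was fitted here on its 8 mice with edgeR 4.0.16 in R 4.3.3 (quasi-likelihood, filterByExpr, trimmed mean of M values), with p adjusted by Benjamini-Hochberg over all genes tested. Calls required an adjusted p below 0.05 together with a log2 fold change beyond 0.5 either way. An F test covered all 24 mice. The code was tested on simulated counts. Alternatives were DESeq2 1.42.0, a fit of all 24 mice, other size factors, no filter, other fold thresholds, the replicate letter or the animal series as a block, the Xist level as a covariate, GC correction from transcript sequences, thinned counts and each mouse left out.

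Exon lengths came from GENCODE M21. A mitochondrial member counts toward its class but is not reported here by itself. Members and lists were chosen with earlier results of these data known. Values in every mouse are given for the 8 cytosolic members with the largest change among those called on day 13, their mitochondrial counterparts and any mitochondrial member called against controls. Values of Iars under rapamycin and of Vars2, Mars2, Gfap and the cysteine ratio in single mice were chosen after they were seen. Fold changes name Tsc1, Gars, Kars, Tarsl2, cytosolic members not called on day 13, members called on day 4, day 6 or under rapamycin, and genes of the lists called on day 8 or day 13, at most 12 per list by size of the day 13 change. The lists, taken from textbook knowledge, were the scaffolds, editing and deacylation, indirect aminoacylation and selenocysteine, tRNA export and delivery, mitochondrial translation factors, mitochondrial ribosomal proteins and the amino acid response, and markers of cell types and hippocampal fields.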

Additional observations from a re-analysis of the deposited data

Results flagged for a closer look

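In 30 quantities, each group of 4 mice was examined for a mouse far from the other mice of its group. Of 180 groups, 10 had one, and chance gives about 1 in 20 groups. Eprs was at 489.46 CPM in day 13 mouse B against 273 to 308 in the others. Aars2 was at 34.195 CPM in day 13 mouse D against 39.4 to 40.4, Nars2 at 19.436 CPM in day 8 mouse A against 18.4 to 18.5, and Pars2 at 7.3027 CPM in day 4 mouse D against 7.79 to 7.86. In rapamycin mouse D the cytosolic median log2 change was -0.1577, against -0.04 to -0.02 in the others, and the cytosolic sum was 255.62 CPM per kilobase, against 274 to 275. The summed endothelial markers were at 91.152 CPM in rapamycin mouse C, against 99.2 to 100.2. The summed choroid plexus markers were at 1647.0 CPM in control mouse B (others 56.3 to 74.8), 647.39 CPM in day 8 mouse D (others 35.8 to 60.1) and 513.68 CPM in rapamycin mouse C (others 41.1 to 87.6). Ttr was the most abundant of these choroid plexus markers, and the cause of their scatter was not tested.

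Treated and untreated day 13 mice, compared directly with edgeR, differed in 17 of 21 cytosolic and 1 of 17 mitochondrial members, against 21.1% of all genes. Day 8 and day 6 mice differed in 8 of 21 cytosolic members, against 0.229% of all genes. That count was 0 without day 6 mouse A, B, C or D or day 8 mouse A. The cytosolic median log2 change was above 0 in every mouse of day 4, 6, 8 and 13 and below 0 in every rapamycin mouse. Control mice ranged from -0.0392 to 0.0261, and day 4 mouse C and rapamycin mice A, B and C lay inside that range. From the rapamycin mean, the group means lay apart by 0.121 for day 4, 0.3361 for day 6, 0.82 for day 8 and 1.0729 for day 13. These differences of medians were not tested.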

How the results depend on the processing

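Counts of members called were compared between processing settings. With no minimum fold change, edgeR called 2 cytosolic and 2 mitochondrial members on day 4, 16 and 2 on day 6, 3 mitochondrial members on day 8, 5 on day 13 and 2 in treated against untreated day 13 mice. With an absolute log2 fold change over 1, it called 0 cytosolic members on day 6 and 5 on day 8, 0 mitochondrial members on day 13 and in treated against untreated mice, and 0 cytosolic members from day 6 to day 8. These shifts follow from the threshold itself.

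With the Xist level as a covariate, 1 cytosolic member was called on day 6 and 0 from day 6 to day 8. With GC correction, 1 cytosolic member was called on day 6, and 0 mitochondrial members were called on day 13 (Sars2 at 0.44) and in treated against untreated mice (Sars2 at -0.44). The edgeR fit of all 24 mice called 1 cytosolic member from day 8 to day 13 (Hars). The cause of these shifts was not tested. Under DESeq2, other size factors, no filter and thinned counts, no count of members called moved by over 1.5 times, and the cytosolic medians kept their sign with other size factors, with Tarsl2 moved to the mitochondrial class and without Gars and Kars. The mitochondrial medians of day 8 and of treated against untreated mice, -0.00 and 0.00, changed sign with other size factors and with Tarsl2 added.

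With the replicate letter as a block, the fit called 0, 2, 12 and 16 cytosolic members on day 4, 6, 8 and 13, 0 under rapamycin, 17 in treated against untreated mice, 8 from day 6 to day 8 and 0 from day 8 to day 13. Mice of the same letter were not paired, since correlations of their deviations ranged from -0.454 to 0.286. With the animal series as a block, read from the numbering of the mice, each of 2 series holding 2 controls and 2 day 8 mice, 13 cytosolic and 0 mitochondrial members were called on day 8.

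With each mouse left out in turn, 1 to 2 cytosolic members were called on day 6, 12 to 16 on day 8, 16 to 17 on day 13, 16 to 18 in treated against untreated mice and 0 to 11 from day 6 to day 8. The lowest day 6 count came without day 6 mouse C. The day 6 to day 8 count was 0 without day 6 mouse A, B, C or D or day 8 mouse A. For mitochondrial members the day 13 count was 0 to 1, and 0 without control A or day 13 mouse B. With counts thinned to the smallest total, the calls of all 38 members were as before on day 13 and in treated against untreated mice.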
